A study of Mus musculus with 2 samples.

Results

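The 6 genes described here, *Smad1*, *Smad2*, *Smad3*, *Smad4*, *Smad5* and *Smad9*, encode the transducing SMAD proteins of mouse embryonic stem cells (mESCs). They were chosen by name from the 31053 genes of 2 single-cell RNA-seq libraries. One library came from parental E14 mESCs (WT), a mouse ESC line with a wild-type genotype. The other came from E14 mESCs labelled *Smad1/5* dKO, a double knockout that was made with CRISPR-Cas9. Both were grown without feeder cells on gelatin, with 15% fetal bovine serum and 1000 U/ml leukemia inhibitory factor (LIF), so serum factors were present in both. Which dKO line was loaded, and where its genes were edited, is not given in the sources used here. *Smad5* mRNA was higher in the library labelled *Smad1/5* dKO than in WT and therefore goes against that label read as a loss of mRNA, so the library is named by its label throughout. The kit counts the 3′ ends of mRNA molecules, so a level given here does not report whether the coding sequence was intact. Each condition has 1 library, so no difference between conditions has a replicate check and no test between them was made.

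Cells were kept where at least 1000 genes were detected and at most 5% of unique molecular identifiers (UMIs, 1 per captured mRNA molecule) were mitochondrial. In WT 2236 cells passed, holding 95965242 UMIs, and 2910 cells labelled *Smad1/5* dKO passed, holding 109020533. They shared no cell barcode. The median depth was 38662 UMIs in WT and 34548.5 UMIs in the library labelled *Smad1/5* dKO. Of the pluripotency markers *Pou5f1*, *Nanog*, *Sox2*, *Zfp42*, *Klf4* and *Esrrb*, the lowest stood at 43.3 CPM (UMIs of a gene per 1000000 UMIs of the cells) in WT, the other library having 47.8 CPM. The summed markers of primitive endoderm, fibroblasts, trophoblast and mesoderm reached at most 1.80 CPM and 2.05 CPM per cell type, with *Postn* at 0 in WT and *Elf5* at 0 in the library labelled *Smad1/5* dKO. All intervals below are 95% intervals and cover counting error only, exact Poisson for UMI levels, exact conditional binomial for ratios, and exact binomial for shares of cells.

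SMAD proteins carry signals of the TGF-β family from the membrane to the nucleus. Type I receptors of bone morphogenetic proteins (BMPs) phosphorylate SMAD1, SMAD5 and SMAD9, whereas those of nodal, activin and TGF-β phosphorylate SMAD2 and SMAD3. Both kinds of receptor-regulated SMAD (R-SMAD) pair with the common partner SMAD4 and bind DNA, often at GC-rich motifs for the BMP arm. In mESCs cultured with serum and LIF, BMP signals maintain the *Id* genes, which encode inhibitors of basic helix-loop-helix factors.

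The start regions of the targeted genes are shown because these genes are the members whose mRNA levels differed most between the libraries among those well covered by UMIs. Each window spans 250 bases before to 50 bases after an annotated start, from RefSeq on GRCm38.p6, printed 5′ to 3′ on the gene's strand. Capitals mark GGCGCC, a GC-rich BMP-SMAD motif that reads the same on both strands. The *Smad1* window lies at chr8:79399379-79399678 on the minus strand, and the first of 3 *Smad5* windows lies at chr13:56702760-56703059 on the plus strand.
Smad1: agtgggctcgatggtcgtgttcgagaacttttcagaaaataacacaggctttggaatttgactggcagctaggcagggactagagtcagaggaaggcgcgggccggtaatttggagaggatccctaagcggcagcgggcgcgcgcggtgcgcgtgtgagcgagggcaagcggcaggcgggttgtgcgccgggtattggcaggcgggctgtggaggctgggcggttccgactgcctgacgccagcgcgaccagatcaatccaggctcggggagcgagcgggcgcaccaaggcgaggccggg
Smad5: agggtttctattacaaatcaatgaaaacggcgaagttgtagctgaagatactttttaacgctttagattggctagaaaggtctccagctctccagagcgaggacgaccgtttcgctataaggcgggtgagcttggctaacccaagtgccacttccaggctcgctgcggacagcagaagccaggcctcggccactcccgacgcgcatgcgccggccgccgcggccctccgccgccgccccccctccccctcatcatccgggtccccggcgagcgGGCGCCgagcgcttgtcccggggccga

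Both windows were rich in CG pairs, with 31 in each, against a median of 7 over the 32851 RefSeq start windows of the same length. Their GC content was 65% for *Smad1* and 63% for *Smad5*, and the median over all windows was 52.7%. The windows of *Smad3* (25 CG pairs, 67.7% GC) and *Smad9* (31 and 73.7%) were rich as well, as were the other *Smad5* windows (36 and 31 CG pairs). GGCGCC occurred in the printed *Smad5* window and not in that of *Smad1*, and 11.9% of all windows held it. That share is over windows of lower median GC content, so it is no like comparison for this motif. The next *Smad5* window, which overlaps the printed one, also held the motif, whereas the last *Smad5* window did not. The *Smad9* window held it and the *Smad3* window did not. The motif GTCTAGAC, also the same on both strands, was found in neither window and in 0.213% of all windows. A match is a run of letters and not a measured binding site, and start windows were matched for 4 of the 6 genes.

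*Smad1* mRNA was lower and *Smad5* mRNA was higher in the library labelled *Smad1/5* dKO, by amounts of similar size. *Smad1* (ENSMUSG00000031681, chromosome 8, 79338395 to 79399518 on GRCm38, minus strand) encodes a main transducer of BMP signals. It stood at 13.4 CPM in WT (12.7 to 14.1, from 1285 UMIs) and at 9.17 CPM in the library labelled *Smad1/5* dKO (8.61 to 9.76, from 1000 UMIs). Its log2 ratio, here and below the library labelled *Smad1/5* dKO over WT, was -0.55 (-0.67 to -0.43). The intervals of the 2 levels did not overlap.

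*Smad5* (ENSMUSG00000021540, chromosome 13, 56703010 to 56742377, plus strand) encodes a close relative of SMAD1 that the same receptors use. Its level was 6.05 CPM in WT (5.57 to 6.57, from 581 UMIs) and 9.09 CPM in the library labelled *Smad1/5* dKO (8.53 to 9.67, from 991 UMIs). The log2 ratio was 0.59 (0.44 to 0.74) and the intervals of the levels did not overlap. Thus neither targeted gene lost its mRNA in the cells carrying the dKO label. In WT the *Smad1* level exceeded that of *Smad5*, whereas in the library labelled *Smad1/5* dKO their intervals overlapped.

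The 2 opposite differences nearly cancelled in the sum. *Smad1* and *Smad5* together came to 19.4 CPM in WT and 18.3 CPM in the library labelled *Smad1/5* dKO, with a log2 ratio of -0.09 (-0.18 to 0.00141). The make-up of the BMP R-SMAD mRNA differed. Of the UMIs of *Smad1*, *Smad5* and *Smad9*, the *Smad1* share was 68.6% in WT (66.5 to 70.7) against 50.1% in the library labelled *Smad1/5* dKO (47.9 to 52.3). *Smad5* supplied 31.0% (28.9 to 33.2) and 49.6% (47.4 to 51.9). These UMIs were thus mostly *Smad1* in WT and about equal parts of both in the other library. Whether the targeted genes yielded protein there cannot be read from these counts.

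**Figure D1:**
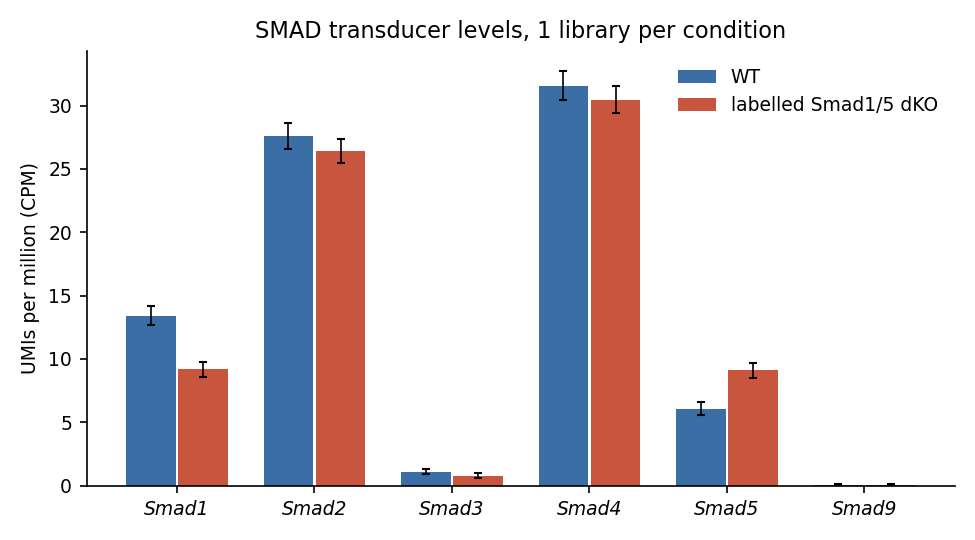
Level of each gene in WT and in the library labelled *Smad1/5* dKO, in CPM on a linear axis from 0, with 1 bar per library and error bars for exact 95% Poisson intervals. *Smad4* and *Smad2* stand highest and nearly level between libraries, *Smad1* is at 13.4 and 9.17 CPM, *Smad5* at 6.05 and 9.09 CPM, and *Smad9* lies lowest.

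Of the 13654 genes that had 50 UMIs or more in the 2 libraries together, 8.60% were lower by at least 0.32 on the log2 scale in the library labelled *Smad1/5* dKO, 6.85% were higher by as much, and 1.30% were at least 2-fold apart in either direction. Of the 5 SMAD genes that reached 50 UMIs, 2 were lower by that amount (*Smad1* and *Smad3*), 1 was higher (*Smad5*) and 0 were 2-fold apart. A ratio below that of *Smad1* was found for 3.11% of the genes, and 97.2% had a ratio below that of *Smad5*. Folds of this size thin out with depth, since 3.73% of the 9691 genes with at least 500 UMIs were lower by that amount and 3.10% were higher. These shares describe the 2 libraries and are no test.

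**Figure D2:**
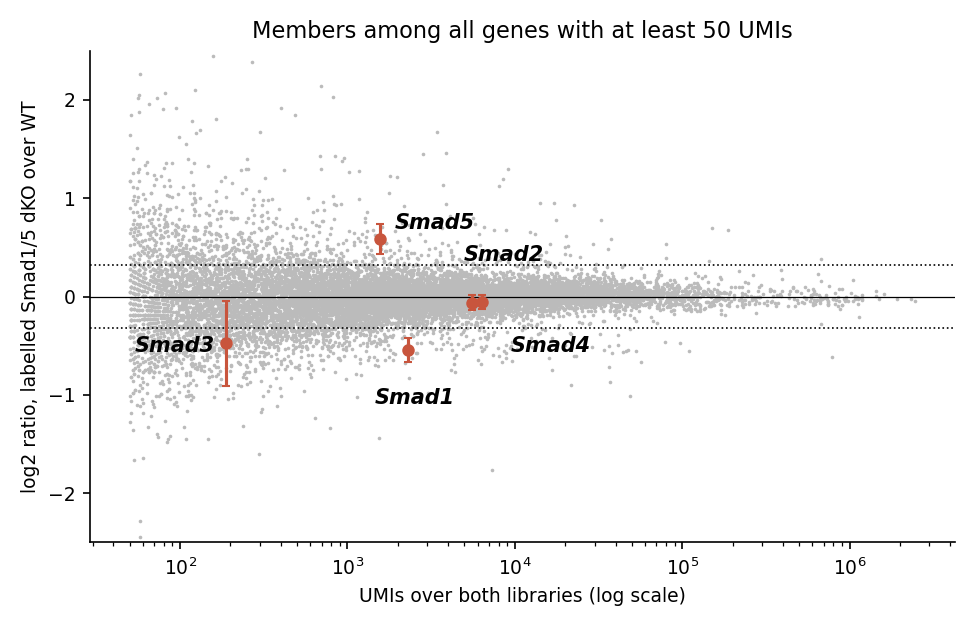
Log2 ratio of the library labelled *Smad1/5* dKO over WT against the UMIs of both libraries on a log axis, for 13654 genes in gray and 5 SMAD genes in red with 95% intervals, and dotted lines at 0.32 above and below 0. *Smad1* and *Smad5* lie beyond the dotted lines on opposite sides, *Smad2* and *Smad4* lie near 0, *Smad3* has the widest interval, and 21 gray genes fall outside the axis at 2.5.

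The genes around *Smad1* differed by side. Of the 10 genes with at least 200 UMIs on the lower-coordinate side, 10 were lower in the library labelled *Smad1/5* dKO, with ratios from -0.78 to -0.25 and a median of -0.62, which lies inside the interval of *Smad1* itself. The nearest of them, *Mmaa*, which acts in cobalamin metabolism, had 359 UMIs in WT against 237 in the library labelled *Smad1/5* dKO, with a log2 ratio of -0.78. Across the higher-coordinate side, 5 of 10 genes were below 0, from -0.08 to 0.12 with a median of 0.00660, and the nearest, the deubiquitinase gene *Otud4*, stood at -0.08. *Smad1* therefore lay with the lower genes of its chromosome 8 neighbors and at their edge. What the neighbors' ratios contribute to that of *Smad1* was not tested.

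*Smad5* differed from both of its sides. The 10 genes on its lower-coordinate side had a median of -0.04 (from -0.23 to 0.18) and those on the other side had a median of -0.00782 (from -0.09 to 0.22), so its ratio of 0.59 exceeded that of each of the 20 genes. The nearest neighbors were *Tgfbi*, which encodes an extracellular matrix protein, at 0.09, and *Hnrnpa0*, an RNA-binding protein gene, at -0.05. For *Smad2*, *Smad3*, *Smad4* and *Smad9*, the medians of the flanking genes ran from -0.08 to 0.03.

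**Figure D3:**
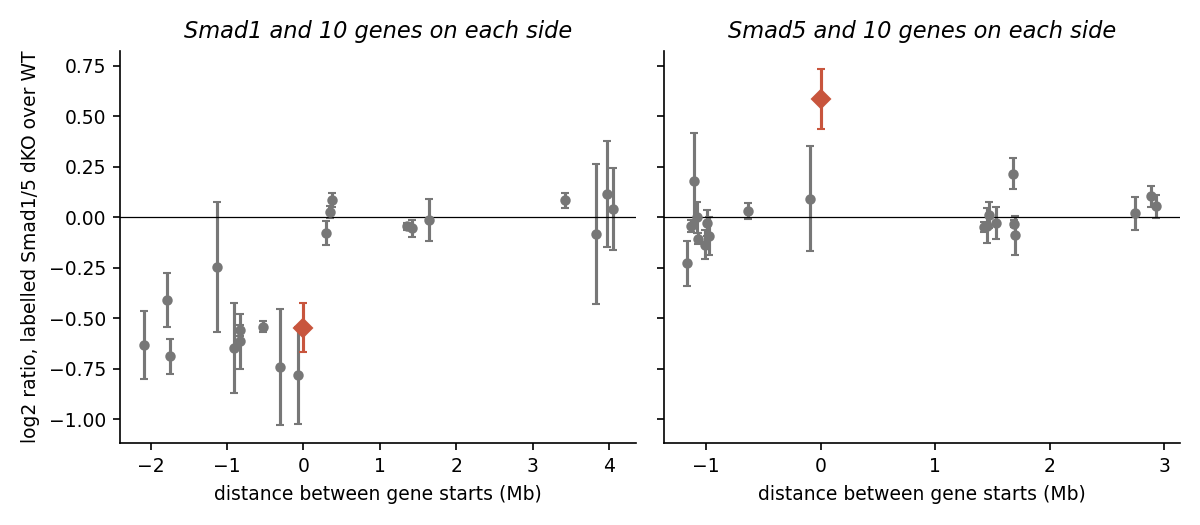
Log2 ratio of the library labelled *Smad1/5* dKO over WT for *Smad1* and *Smad5*, each with the 10 genes on either side that have at least 200 UMIs, against the distance between gene starts in Mb, with 95% intervals as bars. The genes on the lower-coordinate side of *Smad1* lie near -0.62 and those beyond it near 0, whereas *Smad5* at 0.59 stands above all genes around it.

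*Smad9* (ENSMUSG00000027796, chromosome 3, 54755582 to 54801257, plus strand), the remaining BMP R-SMAD gene, was barely detected in either library. It had 7 UMIs in WT, or 0.0729 CPM (0.0293 to 0.150), and 5 UMIs in the library labelled *Smad1/5* dKO, or 0.0459 CPM (0.0149 to 0.107). The interval of its log2 ratio ran from -2.67 to 1.20, so a difference within that range was not detectable at this depth. Its share of BMP R-SMAD UMIs was 0.374% in WT against 0.251% in the library labelled *Smad1/5* dKO, so it supplied few of those UMIs in either. What each gene supplied as protein was not measured.

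The R-SMAD genes of the nodal and activin arm were unequal in level. *Smad2* (ENSMUSG00000024563, chromosome 18, 76241580 to 76310963, plus strand) stood at 27.6 CPM in WT (26.5 to 28.7, from 2647 UMIs) and at 26.4 CPM in the library labelled *Smad1/5* dKO (25.4 to 27.4, from 2878 UMIs). Its log2 ratio of -0.06 (-0.14 to 0.01) had 0 inside its interval, and 35.4% of genes had a lower ratio. Counting error alone leaves room for a fall of 0.14 on the log2 scale. Variation between cultures or libraries is not in the interval, so it sets no limit on the difference between conditions.

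*Smad3* (ENSMUSG00000032402, chromosome 9, 63646767 to 63757994, minus strand), whose product can bind DNA directly where the main SMAD2 isoform does not, had 104 UMIs in WT against 85 in the library labelled *Smad1/5* dKO. These correspond to 1.08 CPM (0.885 to 1.31) and 0.780 CPM (0.623 to 0.964). The log2 ratio of -0.48 carried a wide interval (-0.91 to -0.05), and the intervals of the levels overlapped. The gene next to *Smad3* on the higher-coordinate side was *Smad6*, an inhibitory SMAD gene, at -0.67, whereas *Aagab* on the other side was at 0.11.

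*Smad4* (ENSMUSG00000024515, chromosome 18, 73639009 to 73703780, minus strand), which serves both arms, was the member with the most UMIs. It stood at 31.5 CPM in WT (30.4 to 32.7, from 3027 UMIs) and at 30.5 CPM in the library labelled *Smad1/5* dKO (29.4 to 31.5, from 3320 UMIs), with a log2 ratio of -0.05 (-0.12 to 0.02). Its share of all UMIs of the 6 genes was 39.6% in WT and 40.1% in the library labelled *Smad1/5* dKO. The mRNA of the common partner was thus nearly level between the libraries while the balance of the BMP R-SMAD mRNA differed.

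A UMI is counted once per captured mRNA molecule at its 3′ end, so the genes were ordered by counted UMIs with no correction for gene length. How fully each gene was captured and assigned was not checked. The intervals hold no such difference between genes, so the order is one of UMIs and may not be that of mRNA molecules. The order in WT was *Smad4*, *Smad2*, *Smad1*, *Smad5*, *Smad3* and *Smad9*, with no overlap between the intervals of neighbors in that order. The order was the same in the library labelled *Smad1/5* dKO, but *Smad1* and *Smad5* overlapped. The 6 genes together made up 79.7 CPM in WT and 75.9 CPM in the library labelled *Smad1/5* dKO, a log2 ratio of -0.07 (-0.12 to -0.03).

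The share of cells with a UMI was compared after every cell was thinned at random to 10000 UMIs, with 43 shallower WT cells and 67 shallower cells labelled *Smad1/5* dKO left out. *Smad1* was detected in 271 of 2193 WT cells, or 12.4% (11.01 to 13.8), and in 243 of 2843 cells labelled *Smad1/5* dKO, or 8.55% (7.55 to 9.64). *Smad5* was detected in 129 WT cells, or 5.88% (4.93 to 6.95), and in 267 cells labelled *Smad1/5* dKO, or 9.39% (8.34 to 10.5). At equal depth the shares thus moved in the same directions as the levels, and neither pair of intervals overlapped. Without thinning, *Smad1* was found in 40.6% and 26.7% of cells, and *Smad5* in 21.6% and 27.5%.

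*Smad4* was detected in 26.8% of cells in both libraries at this depth, and *Smad2* in 23.4% (21.7 to 25.3) and 24.2% (22.7 to 25.9). The unthinned shares of these genes were lower in the library labelled *Smad1/5* dKO, at 62.1% against 67.3% for *Smad4* and 58.2% against 64.1% for *Smad2*, and that library was also the shallower one per cell. *Smad3* was seen in 26 WT cells (1.19%) and 22 cells labelled *Smad1/5* dKO (0.774%), and another random thinning gave 0.866% and 0.879%. For *Smad3* the difference was therefore within the noise of the thinning. *Smad9* was seen in 2 and 1 cells, too few to compare.

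**Figure D4:**
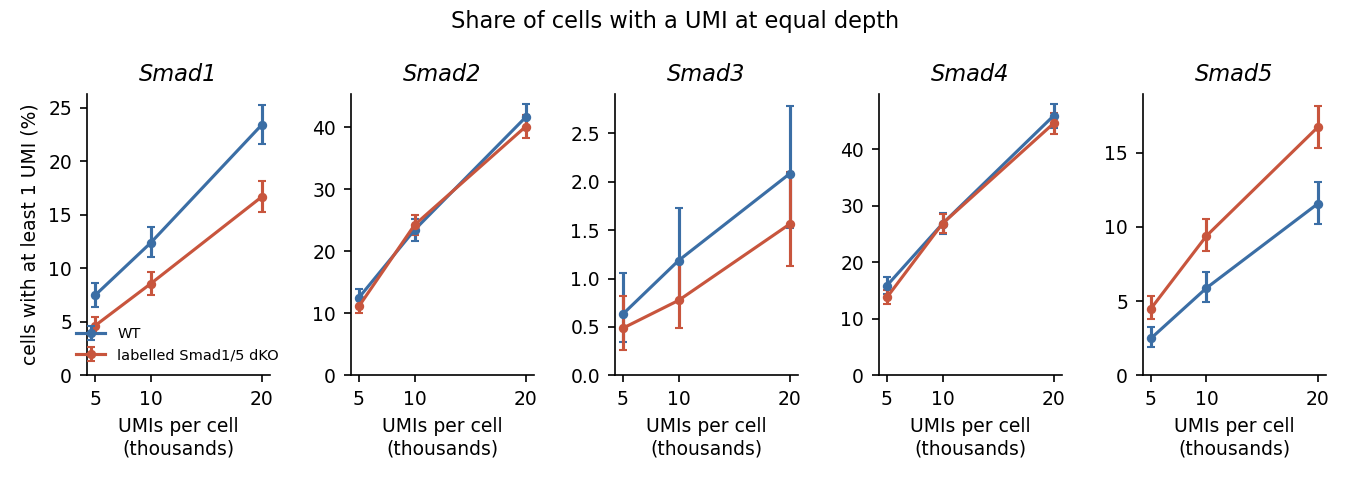
Share of cells with at least 1 UMI of each gene after thinning to 5000, 10000 or 20000 UMIs per cell, with exact 95% binomial intervals, for WT and the library labelled *Smad1/5* dKO. The *Smad1* line of WT lies above that of the other library at each depth, the *Smad5* lines are in the opposite order, and those of *Smad2* and *Smad4* nearly coincide.

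No subgroup of high or silent cells stood out for any member at this depth. The variance of the thinned UMIs was 0.993 to 1.07 times the mean for *Smad1* to *Smad5*, near that of counts drawn at 1 rate in all cells. It was highest for *Smad4* in WT. That single rate would give a UMI in 12.4% of WT cells for *Smad1* and in 5.88% for *Smad5*, as observed. With so few UMIs per cell the share nearly follows from the mean, so this match says little about the spread between cells. For *Smad4* and *Smad2*, which had more UMIs, the rate would give 27.5% and 23.9% of WT cells, against 26.8% and 23.4% observed. In the library labelled *Smad1/5* dKO the rate would give 8.55% for *Smad1* and 9.38% for *Smad5*. Of the 271 WT cells with *Smad1*, 253 had exactly 1 UMI. At this sparsity a modest difference in rate between cells was not detectable.

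Barcodes with 10 to 100 UMIs, which were taken to hold free RNA, were used as the background because no cell type that should lack these genes was found here. At most 0.0759% of these 72422 WT and 72397 other barcodes held a UMI of any given member. *Smad1* had 22 UMIs over such barcodes in WT and 16 in the library labelled *Smad1/5* dKO, and *Smad5* had 17 and 26. Scaled to all UMIs of these barcodes, the intervals of the libraries overlapped for *Smad1* (7.81 to 18.9 CPM in WT and 4.67 to 13.3 CPM in the other) and for *Smad5* (5.61 to 15.4 and 8.67 to 19.5 CPM). Per barcode, these counts were 0.0520% to 0.105% of the UMIs of a cell for *Smad1* to *Smad5*.

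Cells with neither *Smad1* nor *Smad5* detected at 10000 UMIs made up 82.6% of WT cells (80.9 to 84.1) and 82.9% of those labelled *Smad1/5* dKO (81.5 to 84.3). *Smad1* alone was found in 11.5% and 7.70%, and *Smad5* alone in 5.06% and 8.55%. Both were found in 18 WT cells (0.821%) and 24 cells labelled *Smad1/5* dKO (0.844%), against 15.9 and 22.8 cells from the product of the shares. The genes were thus found in the same cell about as often as independent draws would give, at 1.13 and 1.05 times the product.

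Over the pairs of the 6 genes, Spearman correlations across cells of a library lay between -0.0227 and 0.0546. The highest was *Smad1* with *Smad4* in WT, with both detected in 91 cells (73.3 to 112) against 72.7 from the product, 1.252 times as many, and the ratio was 1.06 in the library labelled *Smad1/5* dKO. No member was detected in 46.2% of WT cells and 45.8% of cells labelled *Smad1/5* dKO at this depth. A single member was detected in 39.6% and 40.0%, and 3 members in 1.87% and 1.30%. These correlations are over cells of 1 library at low counts, and ones this weak are no finding.

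The relation to *Id1*, the BMP target with the most UMIs in both libraries, was described within each library. At 10000 UMIs per cell, *Id1* averaged 3.32 UMIs per WT cell and 1.53 UMIs per cell labelled *Smad1/5* dKO, and was detected in 71.6% and 56.5% of cells. Its variance was 7.24 and 3.38 times its mean, so its counts spread over cells more widely than counts drawn at 1 rate. The Poisson intervals of *Id1* given next are for that reason too narrow.

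WT cells with a *Smad1* UMI had 3.52 *Id1* UMIs per cell (3.30 to 3.75) and those without had 3.29 (3.21 to 3.37), a log2 ratio of 0.10 (0.000677 to 0.20). This WT ratio was -0.048 at 5000 UMIs per cell and 0.16 (0.10 to 0.22) at 20000 UMIs, and 1 of 5 alternatives turned its sign. In the library labelled *Smad1/5* dKO, cells with and without *Smad1* had 1.61 (1.46 to 1.78) and 1.52 (1.48 to 1.57) *Id1* UMIs, a log2 ratio of 0.08. At 20000 UMIs that ratio was -0.039. Within each library the levels with and without *Smad1* lay close together, compared with the gap between the libraries. Among WT cells with *Smad5* there were 3.08 *Id1* UMIs per cell against 3.33 without, a log2 ratio of -0.11 (-0.26 to 0.03). In the library labelled *Smad1/5* dKO, the cells with *Smad5* had 1.34 against 1.55, a log2 ratio of -0.21 (-0.37 to -0.06).

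For the nodal and activin arm and *Smad4*, the *Id1* ratios were as small. They were 0.01 in WT and 0.12 in the library labelled *Smad1/5* dKO for *Smad2*, and -0.09 and -0.02 for *Smad4*. *Smad3*, with 26 and 22 cells, gave -0.06 and -0.17. These values turned or moved with depth in WT, where *Smad4* was at 0.065 at 20000 UMIs, *Smad2* at 0.28 at 5000 UMIs and *Smad3* at -0.70 at 20000 UMIs. Over 5 members and both libraries, 19 of 50 alternatives in depth, cells or target gene (*Id2* or *Id3*) turned the sign of the ratio. For *Smad5* in the library labelled *Smad1/5* dKO 0 of 5 did so, but the alternatives reuse the same cells. There, *Id1* was detected in 58.8% of cells with *Smad5* and 56.25% of those without at 10000 UMIs, with a median of 1 UMI in both. At 20000 UMIs the shares were 71.0% and 70.5%, and at 5000 UMIs they were 35.7% and 39.5%. At 10000 UMIs the Spearman correlation of each of *Smad1* to *Smad5* with *Id1* over cells lay between -0.0105 and 0.0149, which is no relation at this sparsity. At 5000 and 20000 UMIs the range was wider. It ran from -0.0274 (*Smad5* in the library labelled *Smad1/5* dKO) to 0.0469 (*Smad1* in WT), both at 20000 UMIs. Without thinning to equal depth, the *Smad1* correlation was 0.160 in WT and 0.0893 in the library labelled *Smad1/5* dKO.

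**Figure D5:**
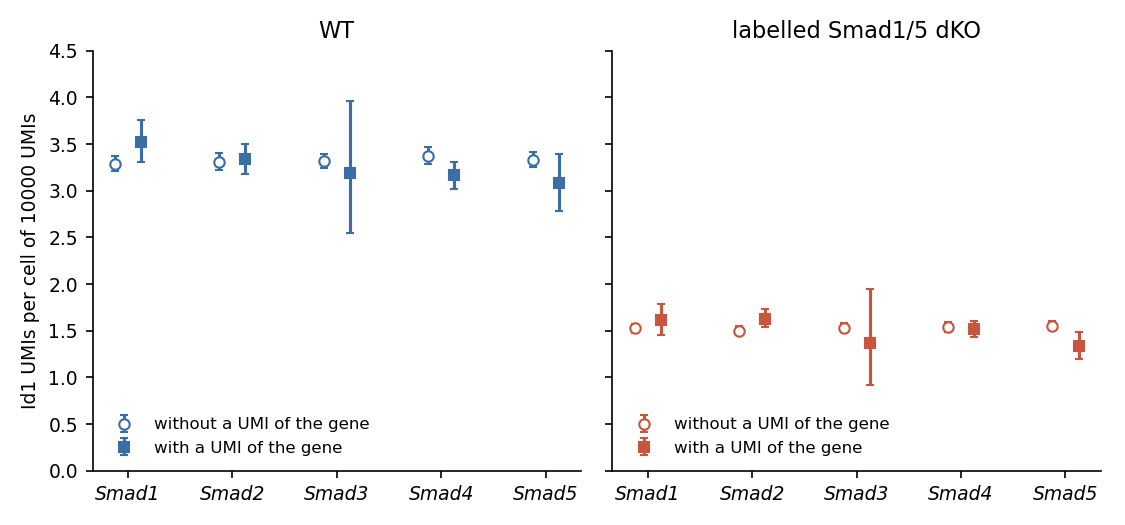
*Id1* UMIs per cell at 10000 UMIs in cells with and without a UMI of each SMAD gene, within each library, with exact 95% Poisson intervals that are too narrow for a gene as uneven as *Id1*. The paired points lie close together for *Smad1* to *Smad5*, and every WT point lies above those of the library labelled *Smad1/5* dKO.

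Read the other way, the *Smad1* level was 12.5 CPM in the 622 WT cells with no *Id1* UMI, 13.0 CPM with 1 or 2, 14.2 CPM with 3 to 5, and 14.6 CPM in the 395 cells with 6 or more. The WT values thus went up with each class, while the intervals of the first (11.1 to 13.9) and the last (12.9 to 16.6) overlapped. The same classes of the library labelled *Smad1/5* dKO gave 9.31, 8.91, 9.34 and 9.53 CPM. The *Smad5* values did not follow the classes, at 6.24, 5.95, 5.90 and 6.23 CPM in WT and 8.88, 9.52, 9.18 and 7.97 CPM in the library labelled *Smad1/5* dKO. In each *Id1* class of cells, the *Smad1* value was lower and the *Smad5* value higher in the library labelled *Smad1/5* dKO than in WT. With 6 or more *Id1* UMIs the *Smad5* intervals overlapped, at 5.10 to 7.54 CPM in WT and 5.93 to 10.5 CPM in the other library (154 cells).

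Cells that held UMIs of both targeted genes had 4.72 *Id1* UMIs per cell in WT (3.77 to 5.84, 18 cells), against 3.32 in cells with neither. The same cells of the other library had 1.88 (1.37 to 2.51, 24 cells) against 1.55. WT cells with *Smad5* and no *Smad1* had 2.81 (2.51 to 3.14, 111 cells). With so few cells, a handful of *Id1*-rich cells can move such a mean, and the intervals do not include that spread.

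Levels of the SMAD genes across parts of the culture were compared within each library, for subsets set by genes that are not members. Cells were ranked by 8 G1/S genes (*Mcm2* to *Mcm6*, *Ccne1*, *Ccne2* and *Cdc6*) and by 8 mitotic genes, lists chosen after the data had been seen, and the highest tertile was set against the lowest. *Smad4* was higher in the highest G1/S tertile, at 33.8 CPM against 30.0 CPM in WT, a log2 ratio of 0.17 (0.05 to 0.30). For the library labelled *Smad1/5* dKO it was at 35.4 CPM against 27.0 CPM, a log2 ratio of 0.39 (0.27 to 0.51). *Smad2* was likewise higher, by 0.23 (0.09 to 0.37) and 0.31 (0.18 to 0.44) on the log2 scale. *Smad3* was at 0.90 (0.15 to 1.69) in WT and at 0.39 (-0.44 to 1.23) in the other library. *Smad1* and *Smad5* were each above 0 in both libraries, at 0.21 and 0.07 for *Smad1* and at 0.17 and 0.25 for *Smad5*, with intervals that held 0 for *Smad1* in the library labelled *Smad1/5* dKO and for *Smad5* in WT.

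By the total UMIs of a cell, *Smad4* was at -0.18 in WT and -0.17 in the other library for the highest tertile over the lowest, so it made up a smaller part of the UMIs of deep cells. *Smad3*, at few UMIs, was at 0.02 (-0.73 to 0.81) in WT and at -0.89 (-1.65 to -0.11) in the library labelled *Smad1/5* dKO. By the mitotic genes, *Smad1* was higher in the top tertile of the library labelled *Smad1/5* dKO, with a log2 ratio of 0.39 (0.16 to 0.61), and in WT the ratio was 0.16 (-0.04 to 0.35). The mitotic ratio of *Smad4* was 0.17 (0.04 to 0.30) in WT and 0.09 (-0.03 to 0.22) in the other library. A UMI of *Sp5*, a Wnt target gene, was found in 96 WT cells and 235 cells labelled *Smad1/5* dKO. The log2 ratio of *Id1* in these over the other cells was 0.63 (0.56 to 0.69) in WT and -0.70 (-0.80 to -0.60) in the library labelled *Smad1/5* dKO. Because *Id1* counts spread widely over cells, these intervals are too narrow. Of the SMAD genes, *Smad2* in WT was lower in *Sp5* cells, at -0.36 (-0.68 to -0.05), and was at 0.03 (-0.17 to 0.23) in the other library. *Smad1* was at 0.12 (-0.28 to 0.50) and -0.07 (-0.42 to 0.28), and *Smad5* at -0.17 (-0.86 to 0.44) and 0.27 (-0.06 to 0.58), intervals too wide to tell whether they move with *Id1*. For *Smad3* and *Smad4* the intervals held 0 in both libraries. Cells with a UMI of *Mest*, an imprinted gene, gave *Smad1* ratios of 0.23 and -0.02 and *Smad5* ratios of 0.27 and 0.07, also with 0 inside each interval. Such cells numbered 149 in WT and 1591 in the other library, so the sets are unlike.

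The pathway around the SMAD genes was followed through fixed lists, which were chosen with earlier results of these data known. Among receptors, 5 of 7 type I genes were measured with at least 50 UMIs, and 0 were lower by at least 0.32 on the log2 scale and 1 was higher (*Acvrl1*, with 72 UMIs). Of 5 type II genes, 1 was lower (*Tgfbr2*, with 67 UMIs) and 0 were higher. The BMP receptor gene *Bmpr1a*, at 12.6 and 10.6 CPM, had a log2 ratio of -0.25 and did not reach that amount. Of all measured genes, 8.60% were lower and 6.85% were higher by that amount. The intervals of *Acvrl1* (-0.25 to 1.21) and *Tgfbr2* (-1.32 to 0.16) both held 0. *Acvrl1*, *Tgfbr2* and *Bmpr1a* are named after their values were seen. The median log2 ratios of the lists were -0.00786 and 0.01, near the median of -0.00693 over all genes.

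Of 14 inhibitory SMADs and other negative regulators, 2 were lower and 0 higher. The lists overlap, since *Smad6*, *Bambi* and *Smad7* are also on the list of BMP target genes below. *Smad6*, which blocks BMP R-SMADs and is itself a BMP target, went from 1.91 to 1.20 CPM with a log2 ratio of -0.67 (-1.001 to -0.33). *Bambi*, a pseudoreceptor gene, went from 15.1 to 12.0 CPM with a ratio of -0.34 (-0.45 to -0.23). *Smad7*, which blocks both arms, stood at 75.3 and 72.6 CPM with a ratio of -0.05. The list's median was -0.04, and 2 of 14 genes compares with 8.60% of all genes. Membrane anchors (2 of 3 measured) and nuclear partners (6 of 6) had 0 genes past that amount in either direction.

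Target genes differed by arm. Of 11 BMP target genes 10 were measured, and 9 of those were lower in the library labelled *Smad1/5* dKO, with a median of -0.66, against 8.60% of all genes. The 9 include *Smad6* and *Bambi*, already counted above. *Id1* went from 323 to 161 CPM (log2 ratio -1.01), *Id2* from 57.1 to 16.8 CPM (-1.76) and *Id3* from 103 to 61.5 CPM (-0.75). *Dusp9*, a MAP kinase phosphatase gene, went from 37.2 to 25.4 CPM (-0.55), and *Id4* (-0.57), *Msx1* (-0.96) and *Msx2* (-0.65) were lower at few UMIs, *Msx1* with 111 UMIs being named after its value was seen. The exception was *Smad7*. The log2 ratios of these targets stand beside that of -0.09 for the summed *Smad1* and *Smad5* mRNA.

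Of 7 nodal and activin target genes, 0 were lower and 2 were higher, against 6.85% of all genes. *Lefty1* and *Lefty2*, which encode secreted nodal antagonists, went from 24.0 to 52.5 CPM (log2 ratio 1.13) and from 14.2 to 24.9 CPM (0.81). *Smad2* and *Smad3* together went from 28.7 to 27.2 CPM over the same cells. The median of the list was 0.04, so most of its genes were near 0.

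The genes whose counts most resembled each member over WT cells were ranked by Pearson correlation, over 6382 or 6383 genes with at least 0.1 UMI per thinned cell. For *Smad1* they were *Cln3* (0.0998), *Zfhx2* (0.0908) and *Dag1* (0.0861), and for *Smad5* *Mdm2* (0.0888), *3110009E18Rik* (0.0862) and *Gm5617* (0.0812). In the library labelled *Smad1/5* dKO the leading values became -0.0112 for *Cln3* and 0.000980 for *Mdm2*. *Smad4* was most like *Trim71* (0.107), *Arid4a* (0.105) and *mt-Nd1* (0.101), and *Smad2* was most like *Bnip2* (0.115), *Bcdin3d* (0.0842) and *Lmnb1* (0.0815). Of these, *mt-Nd1* (0.0871) and *Lmnb1* (0.0822) had similar values in the other library. For *Smad3* the list was *Epc1* (0.105), *Eloa* (0.0912) and *Ubr1* (0.0912), and for *Smad9*, seen in 2 cells, *Mmp11*, *Rpusd1* and *Lztfl1*. Correlations this low in sparse counts single out no gene.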

How the data were processed

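Per the labels and the paper's methods, the authors prepared 1 library per condition with the Chromium Single Cell 3′ v3 kit (target 3000 cells) and processed the reads with Cell Ranger 3.0.2 on mm10. The deposited matrices hold raw UMI counts per gene and barcode for all barcodes, without normalization. Barcodes counted as cells had 1000 detected genes or more and no more than 5% mitochondrial UMIs, and no doublets were removed. Levels are summed UMIs over the total of all kept cells (CPM). Cells were thinned to 10000 UMIs, with 5000 and 20000 as alternatives. A ratio was read where the 2 libraries together held 50 UMIs or more, and neighbors needed 200. With 1 library per group no test was made, no p-value is given, and the intervals cover counting error only. The members and lists were chosen with earlier results of these data known.

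Named genes were the members, *Id1* to *Id3*, *Smad6* and *Smad7*, pathway genes at least 0.32 apart on the log2 scale with at least 200 UMIs (exceptions are said where named), the nearest neighbors and the 3 genes most correlated with each member. Positions are from GENCODE for GRCm38 and start windows from RefSeq for GRCm38.p6. The interval of a ratio was checked only on simulated Poisson counts, the model that it assumes. Those counts held no variation between cells or libraries, so the check says nothing about such variation here. Scripts ran on Python 3.11.15 with scipy 1.17.1, numpy 2.4.6 and pandas 2.3.3, and TMM factors came from edgeR 4.0.16 on R 4.3.3. Over all barcodes, WT held 100446187 UMIs and the other library held 113937221.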

Additional observations from a re-analysis of the deposited data

Results flagged for a closer look

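Barcodes with 10 to 100 UMIs, which entered no comparison of cells, held UMIs of 4 members above the 3 counts that a count of 0 allows. In WT these were 22 UMIs of *Smad1*, 55 of *Smad2*, 51 of *Smad4* and 17 of *Smad5*. In the library labelled *Smad1/5* dKO they were 16 UMIs of *Smad1*, 52 of *Smad2*, 48 of *Smad4* and 26 of *Smad5*. Scaled to all UMIs of these barcodes, the WT level was 12.5 CPM for *Smad1* and 9.64 CPM for *Smad5*, and the levels in the library labelled *Smad1/5* dKO were 8.17 and 13.3 CPM.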

How the results depend on the processing

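No paired analysis was possible because each group has 1 library. Of 42 alternatives for the log2 ratios of the members, 41 moved the ratio by less than its interval, with other cell filters, TMM factors, median scaling, per-cell means, thinning and the cells over 2 times the median UMIs left out (135 WT and 140 labelled *Smad1/5* dKO). The exception was *Smad2*, at 0.048 after thinning. The 12 alternatives for pairs stayed within counting error, the 14 list counts under TMM factors moved by less than 1.5 times, and the 12 neighbor medians moved by less than 1 SD of the 10 genes.

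Differences in the share of cells (the library labelled *Smad1/5* dKO minus WT, in percentage points) moved with depth in 8 of 24 alternatives. *Smad1* was at -6.72 at 20000 UMIs, and without thinning at -13.9. Also without thinning, *Smad2* was at -5.87, *Smad3* at -1.59 and *Smad4* at -5.20. *Smad5* was at 2.00 at 5000 UMIs, at 5.15 at 20000 UMIs and at 5.86 without thinning.

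The log2 ratio of *Id* UMIs with over without a member stayed inside its counting interval in 37 of 50 alternatives, of which 9 turned its sign, and 19 of the 50 turned its sign in all. At 5000 UMIs the WT ratios were -0.048 for *Smad1*, 0.28 for *Smad2* and 0.020 for *Smad4*, and at 20000 UMIs -0.70 for *Smad3* and 0.065 for *Smad4*. With *Id2* in place of *Id1*, WT gave 0.015 for *Smad4* and 0.14 for *Smad5*, and the library labelled *Smad1/5* dKO gave -0.00611 for *Smad2*, 1.43 for *Smad3* and 0.40 for *Smad4*. With *Id3*, *Smad5* was at 0.077 in WT, and the other library had *Smad1* at -0.13 and *Smad5* at -0.40. The sign turned under at least 1 alternative for each of the 5 members, and the cause was not tested.

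With minimums of 200 and 500 UMIs, the share of genes lower by at least 0.32 on the log2 scale was 5.47% and 3.73%, the share higher 4.36% and 3.10%, and the share 2-fold apart 0.537% and 0.361%, since fewer low-count genes were then read. Depth limits *Smad3* and *Smad9*.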
